A study of Mus musculus with 2 samples.

Results

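The genes that store and activate latent TGF-β were examined as a set of 10 among the 34285 genes counted in single cells of the mouse molar. They were taken by symbol from the gene lists of both libraries, and all 10 were found: Ltbp1, Ltbp2, Ltbp3, Ltbp4, Fbn1, Fbn2, Thbs1, Itgav, Itgb8 and Lrrc32. C57BL/6J mice gave their mandibular first molars, with the tissue around them, at PN15.5 (PN is the postnatal day). Clodronate liposomes, which deplete macrophages, had been given to the Lipo-Clo mice by intraperitoneal injection at 40 μg/g, first on PN3.5, again on PN6.5 and PN9.5 and last on PN12.5. The Lipo-PBS mice had received vehicle liposomes. Each condition was 1 library, both labelled as the same batch, and the number of mice in a library is not given in the sources used here. With 1 sample in each, the conditions cannot be tested against each other, and every interval below is at the 95% level and covers counting error only.

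TGF-β is secreted bound to its own propeptide, and this latent complex is tethered to the matrix by latent TGF-β binding proteins (LTBPs), which in turn lie along fibrillin microfibrils. Integrins that contain the αv subunit bind the propeptide and free the ligand, thrombospondin-1 can release it as well, and GARP, the product of Lrrc32, holds the latent complex on the cell surface. In the tooth, fibrillin microfibrils run through the periodontal ligament, where they are a main part of the elastic system.

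The Lipo-Clo library held 9362 cells with 31053404 unique molecular identifiers (UMIs, each a counted transcript), and the Lipo-PBS library 9653 cells with 30537834 UMIs. After filters on genes, mitochondrial UMIs and doublets, 8254 and 8261 cells were used, with medians of 2567 and 2678 UMIs. Mitochondrial UMIs made up 0.370% of the Lipo-Clo and 1.73% of the Lipo-PBS total. The libraries shared 23 cell barcodes among the cells used. The cells were clustered without the 10 genes, and 11 classes were named from marker genes. Dental mesenchyme, the fibroblast, ligament, pulp, odontoblast and bone-forming cells together, made up 51.7% of Lipo-Clo and 49.0% of Lipo-PBS cells. Macrophages were 127 of the Lipo-Clo cells (1.54%) and 172 of the Lipo-PBS cells (2.08%). One cluster matched endothelium best by its markers but was led by perivascular genes such as Acta2 and Tagln (53 Lipo-Clo and 739 Lipo-PBS cells). This cluster and a mixed myeloid cluster (386 and 179 cells) were left unnamed and are in none of the named classes. At least 1 UMI of these 10 genes was found in 5627 Lipo-Clo and 6424 Lipo-PBS cells.

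Of the 10 genes, 7 had an entry among the RefSeq promoter sequences used here (assembly GRCm38.p6, 250 bases before to 50 after a transcription start), with 10 windows in all. The promoters of 4 of these 7 genes are shown, on the strand of the gene from 5′ to 3′. Capitals mark matches, on either strand, to GGGCGG, the core read by SP1 and KLF factors, or to TGACTCA, the AP-1 site. Fbn1 (fibrillin-1, window chr2:125506389-125506688, minus strand) is the gene with the largest difference between the libraries in mesenchyme among those found in at least 10% of cells, and Ltbp4 (chr7:27337563-27337862, minus strand, the most upstream of 3 windows) was high in endothelium and fibroblast-like cells. Ltbp3 (chr19:5740650-5740949, plus strand) was highest in ameloblasts, and Itgb8 (integrin β8, chr12:119238227-119238526, minus strand) in glia. In GENCODE M21, on the same build, the whole genes span chr2:125300594-125507993 for Fbn1 (ENSMUSG00000027204), chr7:27305136-27337692 for Ltbp4 (ENSMUSG00000040488), chr19:5740904-5758532 for Ltbp3 (ENSMUSG00000024940) and chr12:119158022-119238802 for Itgb8 (ENSMUSG00000025321). All are protein-coding. The submitters' notes name another build, mm39, for the counts, and no coordinate was carried over to it.
Fbn1: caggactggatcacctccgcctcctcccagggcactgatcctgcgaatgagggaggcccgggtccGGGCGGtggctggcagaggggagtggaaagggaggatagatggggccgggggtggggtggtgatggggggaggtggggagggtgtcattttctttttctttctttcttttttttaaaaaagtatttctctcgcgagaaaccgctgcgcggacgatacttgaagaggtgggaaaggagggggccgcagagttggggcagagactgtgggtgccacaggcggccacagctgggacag
Ltbp4: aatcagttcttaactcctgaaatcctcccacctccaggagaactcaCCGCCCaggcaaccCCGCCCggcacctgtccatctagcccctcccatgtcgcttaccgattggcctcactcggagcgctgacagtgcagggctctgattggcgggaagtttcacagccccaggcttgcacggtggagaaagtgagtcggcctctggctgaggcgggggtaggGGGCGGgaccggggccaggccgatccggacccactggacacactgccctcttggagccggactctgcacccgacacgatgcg
Ltbp3: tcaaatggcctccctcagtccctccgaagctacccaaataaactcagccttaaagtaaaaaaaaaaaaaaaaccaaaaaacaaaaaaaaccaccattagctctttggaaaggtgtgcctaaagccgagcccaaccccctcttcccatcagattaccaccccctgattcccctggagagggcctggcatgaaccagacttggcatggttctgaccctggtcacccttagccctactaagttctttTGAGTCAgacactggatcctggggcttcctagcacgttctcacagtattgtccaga
Itgb8: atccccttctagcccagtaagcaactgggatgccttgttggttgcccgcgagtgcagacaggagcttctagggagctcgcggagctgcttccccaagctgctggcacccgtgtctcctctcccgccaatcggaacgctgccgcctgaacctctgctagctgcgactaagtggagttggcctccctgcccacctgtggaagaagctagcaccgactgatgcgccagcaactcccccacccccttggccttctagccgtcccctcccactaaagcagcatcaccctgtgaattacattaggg
The window of Fbn1 held 1 match to GGGCGG and that of Ltbp4 held 3, and 35.7% of all 32851 windows of this length hold at least 1. The single match to TGACTCA lay in the window of Ltbp3, and 5.20% of all windows hold one. None of the 10 windows held GGAATG (TEAD factors, 14.7% of all windows), CCGGAAG (ETS factors, 8.86%) or the SMAD palindrome GTCTAGAC (0.213%). ACAAAG, a SOX core present in 18.7% of windows, was found in both windows of Ltbp1. The data hold no measurement of binding at these promoters.

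The LTBPs were spread over different cell types. Levels are given as UMIs per 1000000 UMIs of a class (CPM), with the Lipo-Clo value before the Lipo-PBS value, and are compared between classes for 1 gene at a time. Erythroid cells, which should not express these genes, were taken as a guide to the level of free RNA, which was not measured separately. Their totals include globin transcripts, which lowers the CPM of other genes there, so free RNA in other classes could be higher. The erythroid level was at most 3.44 CPM for Ltbp2, Lrrc32 and Itgb8 and reached 62.8 CPM, for Ltbp4 in Lipo-PBS, among the others. Ltbp1, which binds the latent complex covalently, was at 154 and 200 CPM in ameloblasts and at 144 and 174 CPM in dental mesenchyme, and the intervals of the ratio of these classes included equality in both libraries. These were the only classes of 10 in which Ltbp1 lay more than 2-fold above erythroid cells (24.6 and 39.6 CPM), lower interval bound included, in both libraries. Ltbp3, which also carries the latent complex and whose loss in humans and mice affects teeth, was highest in ameloblasts, the enamel-forming cells, at 139 and 111 CPM. Mesenchyme followed at 77.8 and 79.3 CPM, so that ameloblasts stood 1.78-fold (1.54 to 2.06) and 1.40-fold (1.13 to 1.72) above it.

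Ltbp4, the LTBP that also guides elastic fibre assembly, had its highest class level in endothelium. It stood at 615 and 722 CPM in endothelium, against 240 CPM in perivascular cells, the next class in Lipo-Clo, and 255 CPM in mesenchyme, the next in Lipo-PBS. Endothelium exceeded these by 2.56-fold (2.15 to 3.07) and 2.83-fold (2.63 to 3.05). Within endothelium, the cluster led by the lymphatic genes Ccl21a and Mmrn1 had 898 and 808 CPM and the one led by Cdh5 and Flt1 had 553 and 610 CPM. Endothelium held 9.93% and 15% of all Ltbp4 UMIs and mesenchyme 67.9% and 56.3%, and the fibroblast-like state of mesenchyme, described below, lay above endothelium in both libraries (770 and 741 CPM). Ltbp2, which does not bind latent TGF-β, was scarce, with 148 and 254 UMIs in all cells, of which 82.4% and 80.3% were mesenchymal.

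The fibrillins, which form the microfibrils, were shared between mesenchyme and the cells around vessels. Fbn1 stood at 252 and 413 CPM in mesenchyme and at 336 and 352 CPM in perivascular cells, the pericytes and smooth muscle led by Rgs5 and Acta2. Which of these classes was higher differed between the libraries: perivascular cells stood 1.33-fold (1.17 to 1.51) above mesenchyme in Lipo-Clo, and mesenchyme 1.17-fold (1.07 to 1.29) above perivascular cells in Lipo-PBS. Fbn2, the fibrillin of developing tissues, was highest in mesenchyme (192 and 188 CPM) and next in perivascular cells (122 and 110 CPM). Mesenchyme held 86.8% and 76.8% of its UMIs, the highest share among the 10 genes in both libraries except for Ltbp2 in Lipo-PBS.

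The activators and Lrrc32 had their highest class levels outside mesenchyme. Mesenchyme, with 51.7% and 49.0% of the cells, still held 60.6% and 56.5% of the Itgav UMIs and 59.0% and 57.2% of the Thbs1 UMIs. Its share of the Lrrc32 UMIs was 57.6% and 38.9%. Itgb8, whose protein pairs only with αv, was highest in glia, at 235 and 350 CPM, and stood there 29.3-fold (14.3 to 70.0) above epithelium, the next class in Lipo-Clo, and 27.8-fold (16.8 to 49.4) above endothelium, the next in Lipo-PBS. Glia were 2.27% and 3.60% of the cells and held 44.3% and 55.7% of the Itgb8 UMIs, while mesenchyme, at 5.61 and 9.72 CPM, held much of the rest. When cells were thinned to 1000 UMIs each, 22.0% and 28.0% of glia had an Itgb8 UMI, against 0 of 400 erythroid cells in Lipo-Clo, which allows a share of up to 0.75% at a limit of 3 counts, and 0.667% of them in Lipo-PBS. The thinning left out 28 and 26 glia and 32 and 30 erythroid cells. Without it, at medians of 1667 and 2010 UMIs in glia and 3497 and 2976 UMIs in erythroid cells, the shares were 33.7% and 44.1% of glia and 0.231% and 0.909% of erythroid cells.

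Itgav, the αv subunit, was also highest in glia (138 and 162 CPM), but in Lipo-Clo glia were not resolved from perivascular cells, the next class (1.22-fold, 0.855 to 1.73). Itgav lay more than 2-fold above erythroid cells in 6 of 10 classes, the widest spread of the set, and these included macrophages (80.6 and 95.3 CPM). Thbs1, which encodes thrombospondin-1, was highest in neutrophils (160 and 373 CPM) and next in perivascular cells (141 and 167 CPM), and the interval of their ratio included equality in Lipo-Clo (0.906 to 1.42). In that library perivascular cells were the highest class under a stricter cell filter (500 genes, 10% mitochondrial UMIs). The odontoblast-like state of mesenchyme, described below, lay above neutrophils in both libraries (678 and 769 CPM). In cells thinned to 1000 UMIs, 16.5% and 28.8% of neutrophils had a Thbs1 UMI, against 1.0% and 3.0% of erythroid cells, and before thinning the shares were 29.8% and 41.8% against 2.55% and 5.15%. Lrrc32 was found in endothelium (28.5 and 25.2 CPM) and perivascular cells (20.5 and 35.8 CPM), whose order was not resolved, and no Lrrc32 UMI was found in macrophages of either library, which allows a level of up to 10.1 and 6.5 CPM there at the same limit of 3 counts. In the Ccl21a endothelial cluster its level was 107 and 37.3 CPM on 12 and 27 UMIs, and in the Cdh5 cluster 11.6 and 9.13 CPM.

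**Figure D1:**
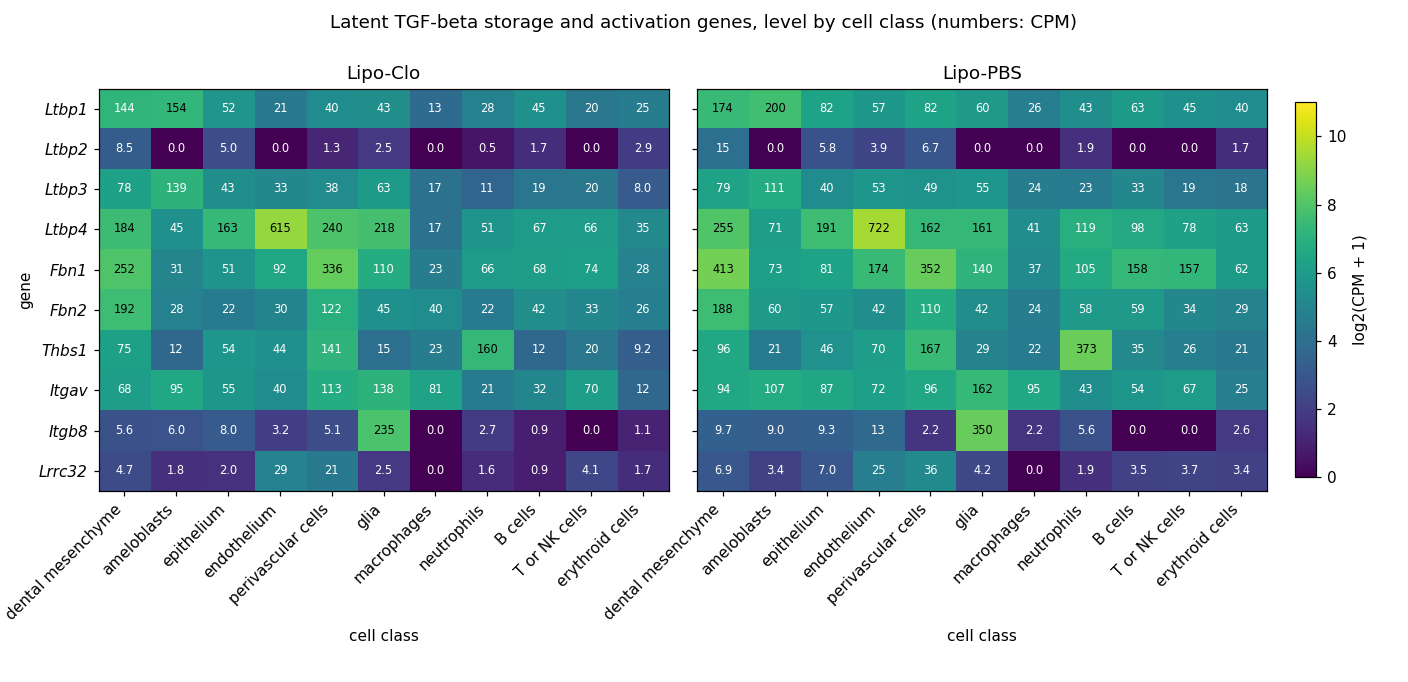
Heat maps of the 10 genes by cell class, with Lipo-Clo on the left and Lipo-PBS on the right; colour is log2(CPM + 1) and the printed number is the CPM. Itgb8 stands out in glia (235 and 350 CPM), Ltbp4 in endothelium (615 and 722 CPM) and, in Lipo-PBS, Thbs1 in neutrophils (373 CPM), while Fbn1 and Fbn2 are highest in mesenchyme and perivascular cells.

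Mesenchyme was clustered again into 11 states, of which 9 were named from markers. Fbn1 was highest in the fibroblast-like state led by Mfap5 and Col14a1, at 1226 and 1411 CPM. A pulp or papilla-like state led by Ctnnd2 and Cntn4 followed among the named states at 437 and 474 CPM. The fibroblast-like state stood 2.81-fold (2.48 to 3.19) above it, the next state in Lipo-Clo. In Lipo-PBS the next was a small unnamed state led by Igfbp6 and Meox2 (547 CPM), exceeded 2.58-fold (1.96 to 3.47). Over the periodontal ligament-like state led by Angptl1 the folds were 5.82 (4.90 to 6.97) and 4.75 (4.31 to 5.26). With 13% and 23.4% of mesenchymal cells, the fibroblast-like state held 45.8% (44.2 to 47.5%) and 63.4% (62.1 to 64.7%) of the mesenchymal Fbn1 UMIs. Osteoblast- or cementoblast-like cells and the periodontal ligament-like state led by Pappa2 were at the low end, between 75.8 and 83.7 CPM.

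Ltbp4 was also high in the fibroblast-like state, at 770 and 741 CPM, and this state held 39.4% and 53.9% of its mesenchymal UMIs. The small unnamed state led by Igfbp6 and Meox2, with 17 and 46 cells, had 1034 and 955 CPM. In the Ctnnd2 pulp or papilla-like state, where Fbn1 was second among named states, Ltbp4 was at 25.3 and 30.8 CPM, 30.5-fold (18.9 to 52.5) and 24.0-fold (14.0 to 45.2) below the fibroblast-like state. The fibroblast-like state carried both genes, and the Ctnnd2 state carried Fbn1 with Ltbp4 below its erythroid level.

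Ltbp1 followed a different order, with the Ctnnd2 pulp or papilla-like state first (380 and 342 CPM), the fibroblast-like state next (340 and 304 CPM) and the Angptl1 periodontal ligament-like state (269 and 296 CPM) and the dental follicle-like state (249 and 273 CPM) after them. The first and second of these did not differ beyond counting error in either library. Odontoblast-like cells were among the lowest states (38.2 and 39.8 CPM, beside 24.6 and 39.6 CPM in erythroid cells). Ltbp3 was even across states by comparison, from 40.1 CPM in dividing cells to 152 CPM in the Ctnnd2 state in Lipo-Clo, and from 45.7 to 161 CPM in Lipo-PBS.

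Fbn2 was highest in pulp or papilla-like states. Its levels were 411 and 440 CPM in the pulp or papilla-like state led by Lrrc4c and 385 and 557 CPM in the Ctnnd2 state. The Lrrc4c state stood 2.70-fold (2.30 to 3.17) and 2.85-fold (2.48 to 3.28) above the fibroblast-like state, where Fbn1 was highest. The lowest Fbn2 levels were in the Pappa2 periodontal ligament-like state, at 63.2 and 53.0 CPM.

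Thbs1 was carried by odontoblast-like cells, the dentin-forming cells led by Bglap and Dspp, at 678 and 769 CPM. These were 2.95% and 2.42% of mesenchymal cells and held 47.4% (44.4 to 50.4%) and 33.0% (30.4 to 35.6%) of the mesenchymal Thbs1 UMIs. Among the other named states Thbs1 was between 14.1 and 136 CPM. Itgav varied little, from 49.2 to 122 CPM among named states in Lipo-Clo and from 47.4 to 147 CPM in Lipo-PBS, with the Angptl1 state and the dental follicle-like state at the top. Itgb8 and Lrrc32 were at most 21.2 CPM in every named state.

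**Figure D2:**
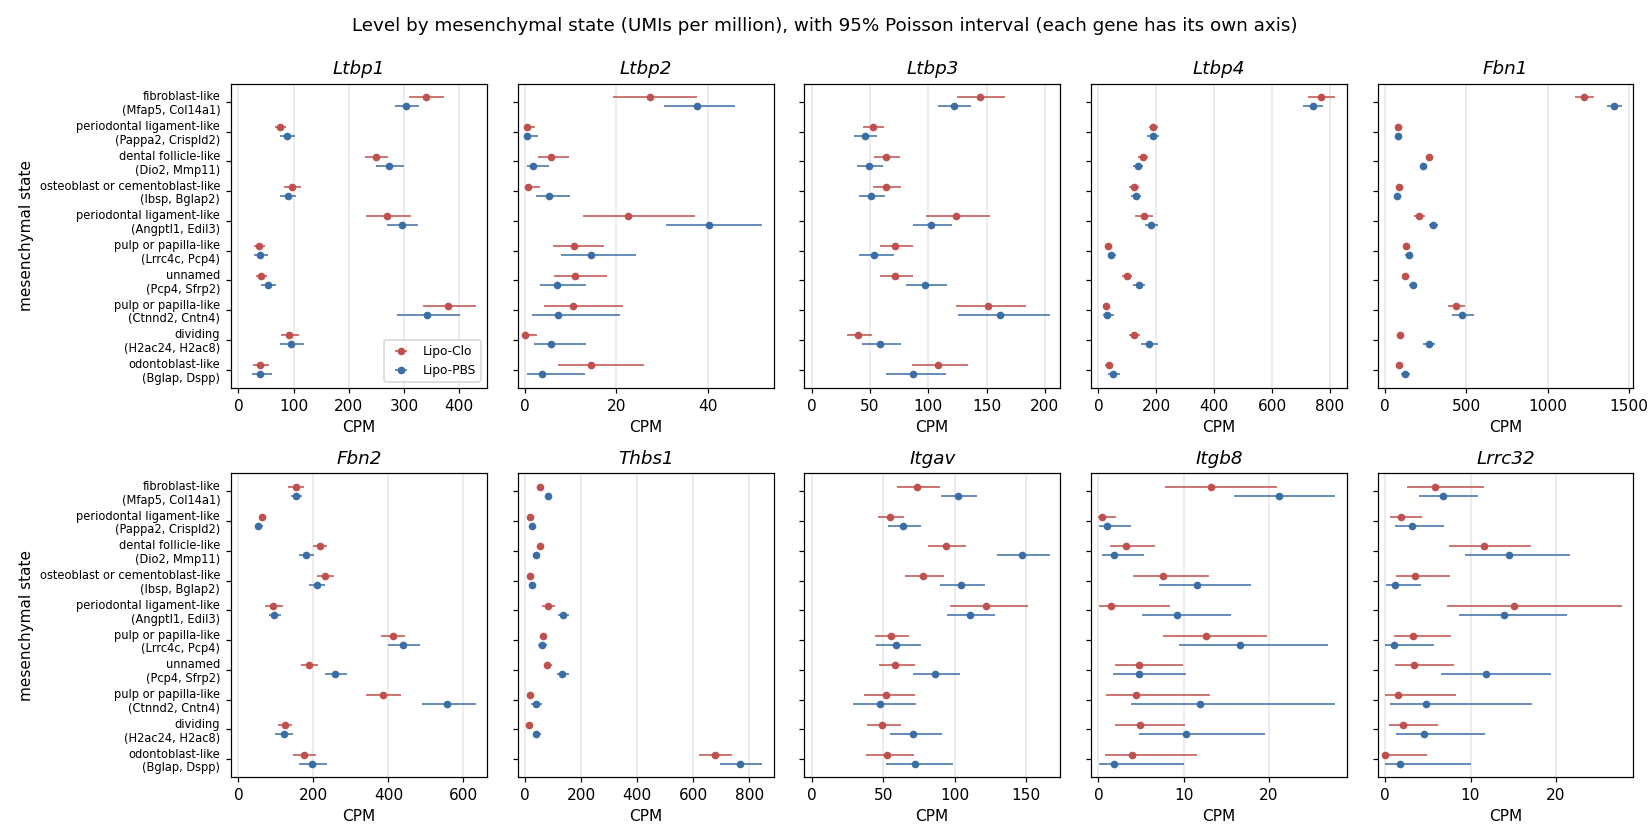
Level of each gene in CPM (horizontal axis, a separate scale for each gene) by mesenchymal state, with Lipo-Clo in red, Lipo-PBS in blue and 95% Poisson intervals as bars; the unnamed state of 17 and 46 cells is left out. Fbn1 and Ltbp4 peak in the fibroblast-like state, Fbn2 in the pulp or papilla-like states and Thbs1 in odontoblast-like cells, in both libraries.

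Next, the libraries were compared in dental mesenchyme. Of the 10 genes, 7 had a UMI in at least 10% of mesenchymal cells of either library, and 6 of these were lower and 1 was higher in Lipo-Clo. Fbn1 differed most: its 3632 Lipo-Clo UMIs made 252 CPM and its 5562 Lipo-PBS UMIs made 413 CPM, so that the log2 ratio of Lipo-Clo over Lipo-PBS was -0.71 (-0.77 to -0.65). It was the 1 gene of 7 lower by at least 1.5-fold, a limit passed on that side by 5.31% of the 4746 genes in use, and 0 of 7 were higher by as much, against 0.969% of all genes. At a log2 ratio of 0.32, 4 of 7 were lower, against 18.4% of all genes, and 0 of 7 were lower by 2-fold, against 1.01%. The median log2 ratio of the 7 genes was -0.35, beside -0.005 for all genes in use.

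Storage genes differed unevenly. Ltbp4 was at 184 and 255 CPM, a log2 ratio of -0.47 (-0.55 to -0.40), and Ltbp1 was at 144 and 174 CPM, a ratio of -0.27 (-0.36 to -0.19). Ltbp3, at 77.8 and 79.3 CPM, had a ratio of -0.03 (-0.15 to 0.09), and Fbn2, at 192 and 188 CPM, one of 0.03 (-0.05 to 0.11). The sign of these last ratios turned when both libraries were given the same mixture of states, to 0.12 for Ltbp3 and -0.10 for Fbn2. Among activators, Itgav was at 68.2 and 93.6 CPM (-0.46, -0.58 to -0.34) and Thbs1 at 75.2 and 95.7 CPM (-0.35, -0.46 to -0.23). The intervals of 5 of the 7 genes were clear of 0 on the lower side, as were those of 36.8% of all genes in use, and 0 of 7 were clear of 0 on the higher side, against 36.6%. An interval clear of 0 was thus common among all genes, on both sides. Whether the 7 genes differ from all genes in this was not tested.

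The other 3 genes were found in under 5% of mesenchymal cells. Ltbp2 had 122 and 204 UMIs (log2 ratio -0.84, -1.18 to -0.51), Itgb8 81 and 131 UMIs (-0.79, -1.21 to -0.38) and Lrrc32 68 and 93 UMIs (-0.55, -1.02 to -0.08). In mesenchyme none of these 3 lay more than 2-fold above erythroid cells in both libraries, lower interval bound included. For Lrrc32 the interval of that ratio included equality in both. With every gene of at least 20 UMIs counted, 3 of the 10 genes (Fbn1, Ltbp2 and Itgb8) were lower by 1.5-fold, against 9.68% of 15273 genes. Per cell, 39.8% of Lipo-Clo and 48.3% of Lipo-PBS mesenchymal cells had an Fbn1 UMI. When cells were thinned to 1000 UMIs these shares were 19.8% (18.6 to 21.1%) and 26.8% (25.4 to 28.2%), against 2.25% and 6.0% of erythroid cells, and 387 and 272 mesenchymal cells were left out as too shallow.

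The ratios of Fbn1, Ltbp4, Ltbp1, Itgav and Thbs1 were nearer to 0 when both libraries were given the same mixture of states. Those of Ltbp3 (0.12) and Fbn2 (-0.10) were further from 0, with the sign turned. With this common mixture, the ratios were -0.25 for Fbn1, -0.06 for Ltbp4 and -0.02 for Ltbp1. Itgav (-0.35) and Thbs1 (-0.30) moved least among the genes with a difference. Of the 7 genes 0 were then lower by 1.5-fold, against 3.69% of all genes in use, and the median ratio was -0.10, beside -0.0006 for all genes. Marker transcripts of other cell types and of dividing cells also differed inside the mesenchymal clusters. All 8 neutrophil markers were higher in Lipo-Clo (598 against 204 CPM summed, log2 ratio 1.55), all 6 cycling markers were higher (267 against 172 CPM, 0.63), and all 6 erythroid markers were lower (22552 against 52212 CPM, -1.21), none of these markers being at 0 in both libraries. Mast cell markers, all 4 higher, had the largest ratio (27.5 against 2.89 CPM, 3.25). Lower sums were found for markers of endothelium (0 of 6 higher, 20.7 against 33.7 CPM, -0.70), glia (1 of 6, 22.3 against 34.1 CPM, -0.61), epithelium (3 of 7, 74.4 against 113 CPM, -0.61) and perivascular cells (1 of 7, 297 against 379 CPM, -0.35). Also lower were T or NK cell (-1.07), skeletal muscle (-0.80), macrophage (-0.39) and osteoclast (-0.31) markers. Higher sums were found for granulocyte-monocyte progenitor (1.73), dendritic cell (1.18), B cell (0.38) and ameloblast (0.34) markers. The intervals for monocyte (0.26) and chondrocyte (0.03) markers included 0. The part of these lists in the results was not tested.

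**Figure D3:**
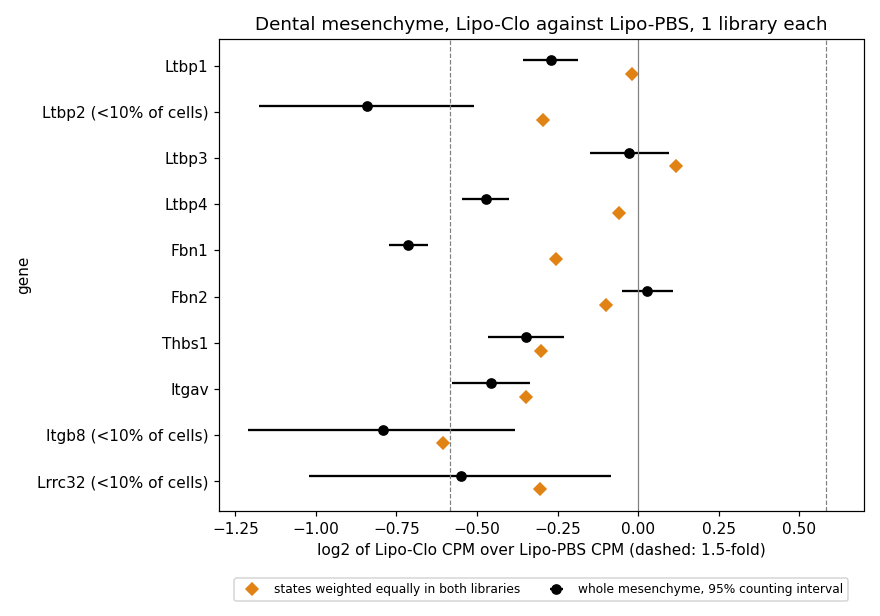
Log2 ratio of Lipo-Clo CPM over Lipo-PBS CPM in dental mesenchyme for each of the 10 genes. Black points are all mesenchymal cells with their 95% counting interval. Orange diamonds are the ratios with the same mixture of states in both libraries, and dashed lines mark 1.5-fold. Fbn1 moves from -0.71 to -0.25 and Ltbp4 from -0.47 to -0.06 with the common mixture, while Itgav moves from -0.46 to -0.35.

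Single states were compared next. Over all gene and state pairs of the set with at least 20 UMIs in both libraries together, 58 of 85 were lower and 27 higher in Lipo-Clo. The intervals of 21 pairs were clear of 0 on the lower side and of 2 on the higher side, against 10.2% and 9.99% of the pairs of all genes. In the fibroblast-like state Fbn1 was at 1226 and 1411 CPM, a ratio of -0.20 (-0.29 to -0.12), and Ltbp4 at 770 and 741 CPM, a ratio of 0.05 (-0.06 to 0.16). Fbn1 was lower in 9 of 11 states, by most in dividing cells (94.3 and 269 CPM, -1.52, -1.83 to -1.20), and higher in the dental follicle-like state (272 and 236 CPM, 0.20, 0.02 to 0.39). In dividing cells Mfap5, a leading gene of the fibroblast-like state, was at 14.8 and 230 CPM. Mfap5 was lower in 9 of 11 states, and a link between it and Fbn1 was not tested.

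Itgav was lower in 8 of 10 states, with intervals clear of 0 in 5. The dental follicle-like state had 94.1 and 147 CPM (-0.65, -0.92 to -0.37), the fibroblast-like state 73.7 and 102 CPM (-0.48, -0.82 to -0.14), and osteoblast- or cementoblast-like cells 77.8 and 105 CPM (-0.43, -0.76 to -0.10). Thbs1 was lower in 8 of 11 states, and its interval was clear of 0 in 4, among them the fibroblast-like state (54.5 and 82.4 CPM, -0.60, -1.0 to -0.21). In odontoblast-like cells, where its level was highest, the ratio was -0.18 with an interval (-0.37 to 0.01) that reached 0. Ltbp1 had no state with an interval clear of 0 in either direction. Ltbp3 was higher in 7 of 10 states with no interval clear of 0, and lower in 3, with 1 clear of 0, the unnamed state led by Pcp4 and Sfrp2 (71.5 and 97.3 CPM, -0.44, -0.83 to -0.06).

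In the 10 other classes, 67 pairs of a gene and a class had at least 20 UMIs. Of these, 36 were lower in Lipo-Clo by at least 1.5-fold and 1 was higher, a share of 53.7% on the lower side against 19.2% of the pairs of all genes (10.1% higher). At a log2 ratio of 0.32, 45 pairs were lower and 3 higher, against 31.7% and 22.2% of the pairs of all genes. At 2-fold 18 pairs were lower and 0 higher, against 7.75% and 2.84% of the pairs of all genes, and the intervals of 31 pairs were clear of 0 on the lower side and of 2 on the higher side, against 11.3% and 8.47%. Most of the 67 pairs did not lie clearly above 2-fold of the erythroid level. Over the 10 genes together, erythroid cells themselves differed by a log2 ratio of -0.84 (-1.08 to -0.60), at 148 and 265 CPM, and neutrophils had -1.09 (-1.27 to -0.91). Perivascular cells had 1057 and 1062 CPM, a ratio of -0.01 (-0.13 to 0.12).

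Restricted to the 18 pairs that lay more than 2-fold above erythroid cells in both libraries, lower interval bound included, 14 were lower and 4 higher in Lipo-Clo. Among them 5 were lower by at least 1.5-fold, against 13.4% of the 10968 pairs of all genes chosen in the same way. The intervals of 7 were clear of 0 on the lower side and of 0 on the higher side, against 13.5% and 13.6% of all such pairs. The median ratio of the 18 pairs was -0.24, beside -0.03 over all such pairs. Erythroid levels of all genes of the set but Ltbp2 were higher in Lipo-PBS, where the limit was thus harder to pass. The Lipo-PBS bound alone removed Ltbp4 in perivascular cells (0.57) and glia (0.44), Thbs1 in epithelium (0.24) and Itgav in T or NK cells (0.05). It also removed Ltbp3 in glia (0.20), epithelium (0.10), endothelium (-0.68) and perivascular cells (-0.35), and Fbn1 in glia (-0.35). How far the results for the 18 pairs rest on this was not tested. Among the 18 pairs, Thbs1 in neutrophils differed most, at 160 and 373 CPM on 300 and 198 UMIs, a ratio of -1.22 (-1.49 to -0.96). In that class 38.1% of all genes were lower by at least 1.5-fold, and the median of all genes was -0.39. Itgb8 in glia was at 235 and 350 CPM (-0.57, -0.93 to -0.22).

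Ltbp4 in endothelium was at 615 and 722 CPM (-0.23, -0.41 to -0.06). The Ccl21a cluster, with 31 Lipo-Clo and 147 Lipo-PBS cells, had a ratio of 0.15 (-0.17 to 0.46) and the Cdh5 cluster, with 371 and 377 cells, one of -0.14 (-0.37 to 0.09), so neither cluster alone was clear of 0. Fbn1 in endothelium (91.9 and 174 CPM, -0.92, -1.36 to -0.50) behaved likewise, with -0.62 (-1.43 to 0.10) and -0.29 (-0.92 to 0.32) in these clusters. Ltbp4 was higher in Lipo-Clo in perivascular cells (240 and 162 CPM, 0.57, 0.28 to 0.86) and in glia (218 and 161 CPM, 0.44, 0.02 to 0.85), the only pairs of the 67 whose interval was clear of 0 on the higher side. The perivascular class leaves out the unnamed cluster led by Acta2 and Tagln (53 and 739 cells). Both unnamed clusters together held 101 and 795 Ltbp4 UMIs (38.3 and 232 CPM). How far the perivascular ratio depends on leaving that cluster out was not tested. In ameloblasts Ltbp1 was at 154 and 200 CPM (-0.38, -0.66 to -0.09) and Ltbp3 at 139 and 111 CPM (0.32, -0.03 to 0.67).

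**Figure D4:**
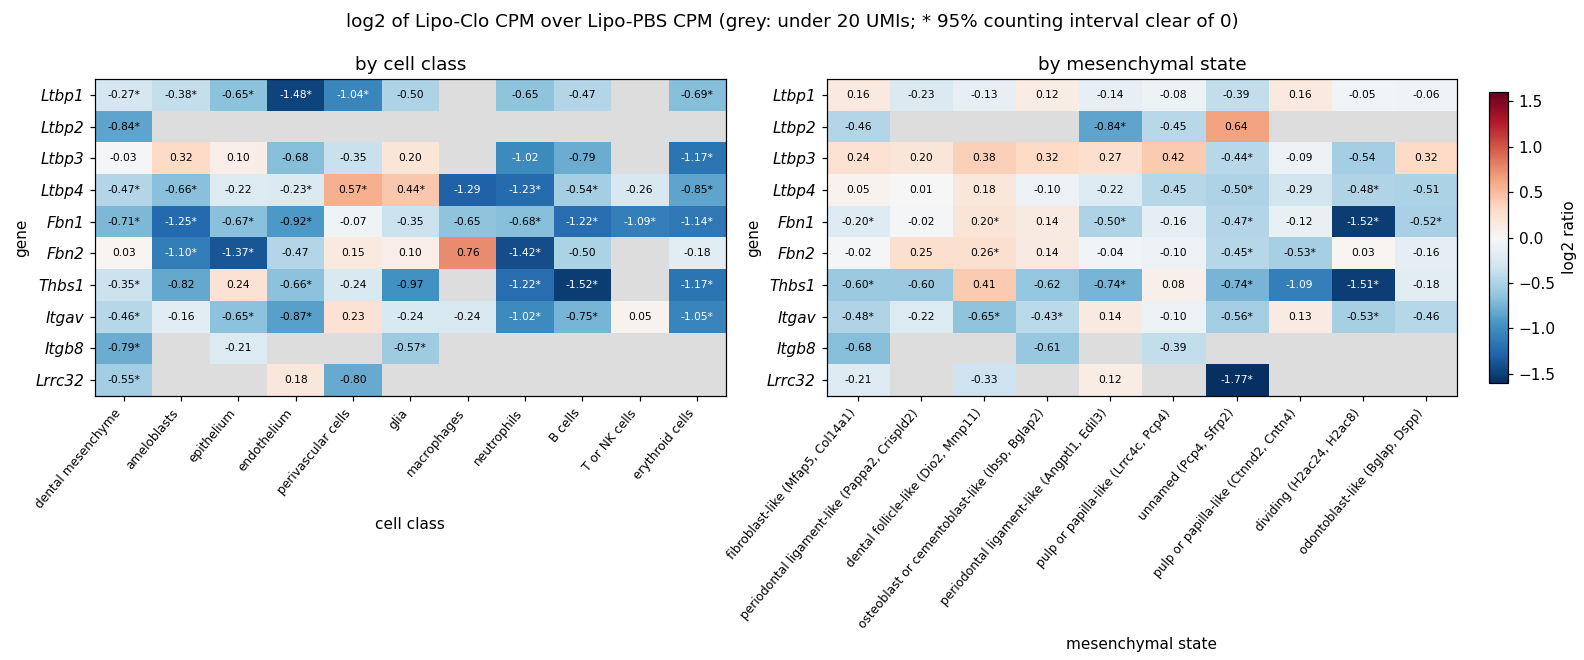
Log2 ratio of Lipo-Clo CPM over Lipo-PBS CPM for each gene by cell class (left) and by mesenchymal state (right); blue is lower and red higher in Lipo-Clo, grey cells had under 20 UMIs, and a star marks a 95% counting interval clear of 0. Fbn1 is below 0 in all 11 classes, erythroid cells among them (28.0 and 62.0 CPM, -1.14). It lay more than 2-fold above erythroid cells, lower interval bound included, in both libraries only in mesenchyme, endothelium and perivascular cells. Fbn1 is also below 0 in 8 of the 10 states drawn, the dental follicle-like and osteoblast- or cementoblast-like states being the others. Ltbp4 is above 0 with a star in perivascular cells (0.57) and glia (0.44).

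The other β subunits that pair with αv were then located. Itgb6, whose product forms the epithelial activator αvβ6, was found in ameloblasts, at 113 CPM on 188 UMIs in Lipo-Clo and 38.2 CPM on 34 UMIs in Lipo-PBS, a ratio of 1.57 (1.04 to 2.14). Epithelium was the only other class clearly above erythroid cells, at 14.0 and 15.7 CPM. Itgb8 marked glia and Itgb6 ameloblasts, and the level of each in the class of the other was at most 8.99 CPM. Itgb5 was highest in macrophages (232 and 175 CPM), mesenchyme (206 and 223 CPM) and perivascular cells (203 and 161 CPM). Itgb1, which pairs with many α subunits, was lower in Lipo-Clo in mesenchyme (537 and 916 CPM, -0.77, -0.81 to -0.73), in all 10 other classes and in all 11 states, with an interval clear of 0 in every class and in 10 states. Over all genes, 36.8% in mesenchyme, 11.3% of pairs in the other classes and 10.2% of pairs in states were clear of 0 on that side.

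**Figure D5:**
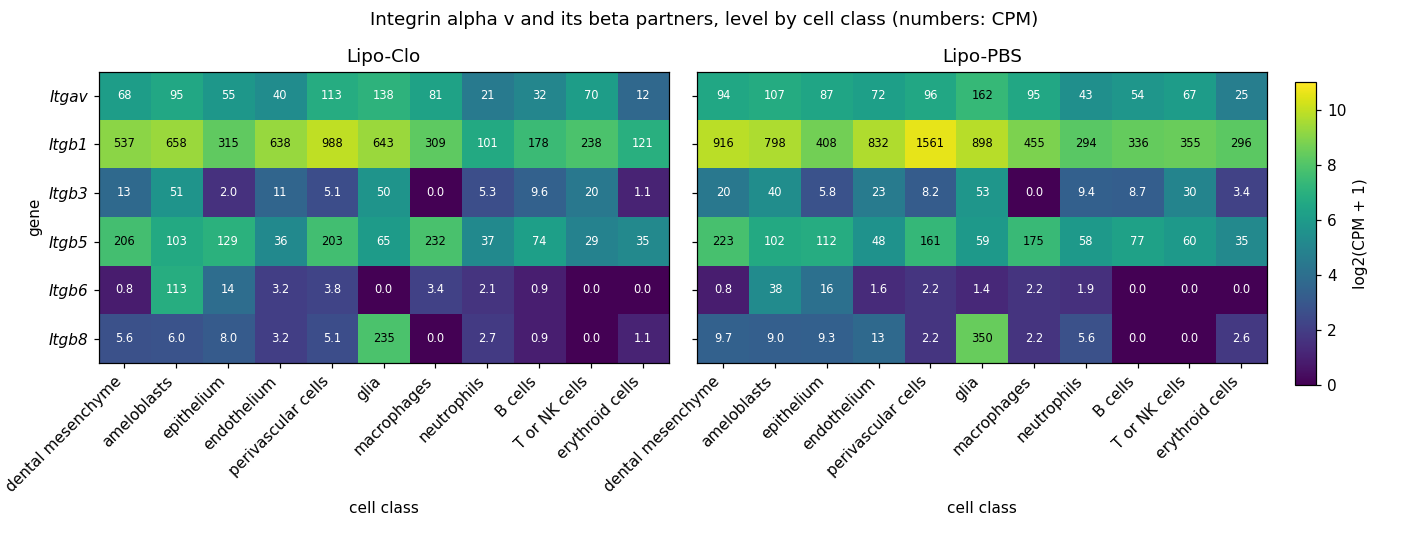
Heat maps of the αv subunit gene Itgav and of 5 partner β subunit genes by cell class, with Lipo-Clo on the left and Lipo-PBS on the right; colour is log2(CPM + 1) and the printed number is the CPM. Itgb8 is highest in glia (235 and 350 CPM) and Itgb6 in ameloblasts (113 and 38.2 CPM), while Itgb1 is found in all classes.

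Of 23 further genes of the latent TGF-β pathway, 16 were in use in mesenchyme, with 7 higher and 9 lower in Lipo-Clo and a median log2 ratio of -0.08. Of all 4746 genes in use 2389 were lower, with a median of -0.005. Past 1.5-fold were 2 on the lower side, Itgb1 and the microfibril glycoprotein gene Mfap5 (218 and 454 CPM, -1.06, -1.12 to -1.0), and 0 on the higher side. Of all genes in use 5.31% were past it on the lower and 0.969% on the higher side. Fibronectin, Fn1, which LTBP1 needs for its deposition, was just inside the limit (445 and 667 CPM, -0.58, -0.63 to -0.54). On the other side were Furin, the protease that cuts the TGF-β propeptide from the ligand (161 and 129 CPM, 0.32, 0.23 to 0.41), and Tgfb1 itself (160 and 136 CPM, 0.23, 0.14 to 0.32). The microfibril and matrix partners Thsd4 (0.30, 0.19 to 0.41), Emilin1 (0.28, 0.19 to 0.38) and Mfap2 (654 and 577 CPM, 0.18, 0.14 to 0.22) were also higher. Of the other ligands, Tgfb2 was lower (94.4 and 114 CPM, -0.27, -0.38 to -0.17), and the interval of Tgfb3 included 0 (105 and 109 CPM, -0.05, -0.16 to 0.05). Tgfb1 was highest in ameloblasts (468 and 360 CPM). Nrros, which holds latent TGF-β on myeloid cells as GARP does on others, was highest in macrophages, at 158 and 173 CPM on 47 and 80 UMIs (-0.14, -0.69 to 0.40), the class in which Lrrc32 was not found.

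Levels across classes and states were compared with those of other genes with at least 500 UMIs, over 38 points, each a class or state in 1 library with at least 50000 UMIs. The points share libraries and cells of neighbouring states, and the genes named are the highest of 9511 or 9512 searched for each gene. These correlations are therefore descriptions. Itgb8 was far higher in glia (235 and 350 CPM) than in any other class or named state, and how far its correlations rest on the glia points was not tested. Ltbp3 was most like Bmp1, which encodes a protease that cleaves LTBP1 (Pearson r = 0.93 of log2(CPM + 10)). Fbn1 was most like Fstl1 (0.91) and Fn1 (0.85), and Fbn2 like Fendrr (0.90). Itgb8 followed the Schwann cell genes Col28a1 and Prx (both 0.92), Lrrc32 followed Osmr (0.89) and the basement membrane collagen Col4a2 (0.85), and Ltbp4 followed the caveolar gene Cavin1 (0.84). For Thbs1 the likeness was weaker, with Ano10 (0.72) and the dentin gene Dspp (0.66). Within the set the highest correlation was between Ltbp1 and Ltbp3 (0.76).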

How the data were processed

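The authors deposited raw UMI counts per gene and cell as 1 matrix per library, without normalization. Per the file headers these came from Cell Ranger 8.0.0, while the submitters' processing notes name Cell Ranger 3.1.0, Seurat 3.1.1 and mm39. Promoter coordinates are GRCm38.p6. Filters removed cells below 200 genes or above 20% mitochondrial UMIs. Scrublet's automatic threshold called 0 and 1 doublets, so the top-scoring 7.11% and 7.12% of cells were removed. Counts were scaled to 10000 per cell and clustered in scanpy 1.11.5 with 2000 variable genes (the 10 genes excluded), 30 components, 20 neighbours and leidenalg 0.10.2 at resolution 1. Mesenchyme was clustered again with 20 components at 0.6. Clusters were named from at least 3 markers each, 2-fold above the median cluster, and stayed unnamed where another lineage was also marked. UMIs were summed per class and library. Ratios have exact intervals for 2 Poisson counts and shares have Clopper-Pearson intervals, checked on simulated counts. Named genes are the 10 members, 23 fixed pathway genes and, per member, the 3 genes with the highest correlation. The genes and lists were chosen with earlier results of these data known. Alternatives were other scalings (edgeR 4.0.16, DESeq2 1.42.0), cell filters, resolutions and limits of 2-fold and of 0.32 on the log2 scale. A further alternative held the mixture of mesenchymal states the same in both libraries.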

Additional observations from a re-analysis of the deposited data

How the results depend on the processing

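No paired analysis was possible because there is 1 library per condition. The count of genes at least 1.5-fold lower in mesenchyme was 1. It was 0 with the same mixture of states in both libraries (3.69% of all genes) and 0 at a limit of 2-fold (1.01%). It was 4 at a log2 ratio of 0.32 (18.4%) and 3 with all genes of at least 20 UMIs (9.68%). The median log2 ratio, -0.35, was -0.10 with that common mixture, -0.45 for the mean over scaled cells and -0.47 with genes of at least 20 UMIs. In other classes, 18 pairs were lower and 0 higher at a limit of 2-fold (7.75% and 2.84% of all pairs), and 45 were lower and 3 higher at a log2 ratio of 0.32 (31.7% and 22.2%). The cause of these shifts was not tested, except that limits and filters change what is counted. The mesenchymal ratio of Fbn1 ranged from -0.74 to -0.25, that of Itgav from -0.48 to -0.35 and that of Thbs1 from -0.58 to -0.28 over 14 alternatives. After the data had been seen, the unnamed cluster led by Acta2 and Tagln was counted as mesenchyme (Fbn1 -0.59) and dividing cells were left out (-0.65). The share of higher genes among all past 1.5-fold was 15.4%, and 26.1% in thinned cells and 36.5% with genes of at least 20 UMIs. Depth limits Ltbp2, Itgb8 outside glia and Lrrc32, and 1 library per condition limits every comparison.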
